A study of Mus musculus with 9 samples.

Results

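Broad open domains are stretches of accessible chromatin 2000 bp or wider. They were obtained by merging the ATAC-seq peaks of all 9 peak lists of the series on the autosomes wherever peaks lay within 100 bp of each other. ATAC-seq uses a transposase that inserts adapters into DNA free of nucleosomes, and a peak is a stretch where insertions pile up above the local background. Of 68078 merged regions, 225 were 2000 bp or wider. They were selected on their width, so their width and the presence of peaks in them are described below without a test.

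The cells came from embryonic mouse cochlear ducts of Sox2-EGFP animals, heterozygous for an EGFP inserted into the coding region of Sox2, so every sample, Sox2-EGFP- cells included, carried 1 altered Sox2 allele. Sox2-EGFPhigh+ cells, the prosensory cells that give rise to hair cells and supporting cells, were sorted at embryonic day 12 (E12), E14.5 and E16, with 2 replicates each. Sox2-EGFP- cells were sorted at E14.5 (1 replicate, numbered 2) and E16 (2 replicates), and cells of intermediate EGFP level were left out by the gate. Each Sox2-EGFPhigh+ replicate was 1 litter of pooled ducts. The labels name no treatment. The samples were sequenced in 2 batches, with replicate 1 of both E16 groups in the one and the other 7 samples in the other, a split that the library names share. The samples were grouped by title, because the separate cell type tags of 3 of the 4 E16 samples contradict their titles.

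Most mammalian genes with housekeeping or developmental roles start inside a CpG island, a stretch rich in the dinucleotide CpG, which elsewhere in the genome is depleted by methylation and mutation. CpG islands tend to stay unmethylated and poor in nucleosomes, and islands of regulatory genes are often long. An open promoter usually gives a peak of a few nucleosomes' length at the transcription start site, and wider open stretches are the exception.

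The lists differed in length. They hold no reads, so the number of peaks is given here as list length and not as a measure of depth. The lists ranged from 7577 and 13817 peaks at E12 to 66332 peaks in E14.5 Sox2-EGFPhigh+ replicate 1, and the 3 Sox2-EGFP- lists held 23302 to 23899. By the read numbers that the paper reports, the longest list was not from the deepest library. The library of the longest list, E14.5 Sox2-EGFPhigh+ replicate 1, had the largest share of reads in peaks by the paper's numbers. The E14.5 Sox2-EGFPhigh+ replicate 1 list stood apart from the other 8: its median peak was 553 bp wide against 290 to 464 bp, and it held 121 autosomal peaks of 2000 bp or more against 1 to 19. The lists hold only peaks seen again in a further sample of their own type, so sharing within a type is built into them. As a check of the labels, the start sites of Gata3, a zinc finger factor of the prosensory domain, and Grhl2, an epithelial factor, lay under a peak in all 6 Sox2-EGFPhigh+ lists and in none of the 3 Sox2-EGFP- lists; both were picked out of 39 otic factors after their values were seen. The start site of Sox2 itself did not separate the types: it lay under a peak in 4 of the 6 Sox2-EGFPhigh+ lists and in 2 of the 3 Sox2-EGFP- lists. Of 9 markers of otic mesenchyme, 5 to 7 start sites were under a peak in each Sox2-EGFP- list and 0 to 5 in each Sox2-EGFPhigh+ list, with the 5 in E14.5 replicate 1. No start site of 8 macrophage markers lay under a peak in any list, and the 8 endothelial and 5 glia markers had 0 to 3 and 0 to 4.

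The domains covered 500420 bp. Their median width was 2148 bp and the widest was 3849 bp, while the median of all merged regions was 576 bp. The widths crowded towards the threshold: 83 domains were under 2100 bp, 23 were between 2500 and 3000 bp, and 2 were wider still. The narrowest members were at Egr1 (2007 bp), an immediate early gene, Fnbp1l (2006 bp) and Foxn3 (2002 bp), and the regions just under the threshold include those at Accn1 (1997 bp) and Kif26b (1996 bp). The domains were spread over all 19 autosomes, with 6 to 17 on each.

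The sequences below show what open DNA of such a domain looks like. Each is a 300 bp piece of the reference genome (NCBIM37, the sequence of mm9), centred on the summit of the domain's highest peak or moved to the nearest piece of the region without an annotated untranslated exon, and written 5′ to 3′ on the strand of the gene. The capitals mark every CpG. The Tcfap4 piece is chr16:4558515-4558814 (minus strand) in the widest domain that holds a gene, the Dnmt3a piece is chr12:3806227-3806526 (plus strand), the Klf13 piece is chr7:71083802-71084101 (minus strand) and the Sox12 piece is chr2:152223784-152224083 (minus strand). The intergenic piece is chr14:115439968-115440267 (plus strand), from a domain that holds no annotated protein-coding start.
Tcfap4: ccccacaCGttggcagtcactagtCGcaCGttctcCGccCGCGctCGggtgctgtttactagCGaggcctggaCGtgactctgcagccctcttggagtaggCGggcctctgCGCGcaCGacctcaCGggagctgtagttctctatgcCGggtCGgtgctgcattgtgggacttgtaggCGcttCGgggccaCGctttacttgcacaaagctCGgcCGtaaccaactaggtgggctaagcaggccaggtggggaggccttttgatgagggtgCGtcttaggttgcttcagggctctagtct
Dnmt3a: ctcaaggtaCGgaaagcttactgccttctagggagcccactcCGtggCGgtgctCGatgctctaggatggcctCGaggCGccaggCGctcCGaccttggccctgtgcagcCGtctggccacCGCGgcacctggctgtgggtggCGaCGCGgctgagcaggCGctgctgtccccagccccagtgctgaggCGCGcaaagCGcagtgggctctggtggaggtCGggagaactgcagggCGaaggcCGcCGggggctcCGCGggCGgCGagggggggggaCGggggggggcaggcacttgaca
Sox12: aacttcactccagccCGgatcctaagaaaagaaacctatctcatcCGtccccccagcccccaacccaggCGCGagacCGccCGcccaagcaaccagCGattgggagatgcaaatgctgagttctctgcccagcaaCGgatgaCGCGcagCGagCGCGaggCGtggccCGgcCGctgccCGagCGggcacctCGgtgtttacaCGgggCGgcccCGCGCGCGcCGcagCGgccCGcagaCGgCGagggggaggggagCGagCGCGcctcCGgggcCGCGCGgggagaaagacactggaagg
Klf13: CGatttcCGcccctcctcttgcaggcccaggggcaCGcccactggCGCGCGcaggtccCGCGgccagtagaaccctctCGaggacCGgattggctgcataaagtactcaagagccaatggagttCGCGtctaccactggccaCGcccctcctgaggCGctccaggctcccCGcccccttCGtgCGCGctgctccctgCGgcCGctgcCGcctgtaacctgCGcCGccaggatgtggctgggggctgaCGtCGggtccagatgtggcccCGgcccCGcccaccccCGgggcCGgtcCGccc
Intergenic, chromosome 14: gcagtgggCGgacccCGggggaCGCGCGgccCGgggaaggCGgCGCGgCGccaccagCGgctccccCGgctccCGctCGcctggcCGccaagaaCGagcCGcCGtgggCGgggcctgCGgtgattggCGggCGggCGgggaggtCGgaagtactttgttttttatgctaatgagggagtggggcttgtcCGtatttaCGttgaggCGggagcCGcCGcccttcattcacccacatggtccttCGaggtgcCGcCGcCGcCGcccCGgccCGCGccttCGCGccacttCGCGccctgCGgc

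The 5 pieces from domains held 22 (Tcfap4), 27 (Dnmt3a), 37 (Sox12), 30 (Klf13) and 42 (intergenic) CpG. The Tcfap4 piece lies farthest inside its gene, with its centre 1055 bp downstream of the start site.

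The domains were promoters with few exceptions. A protein-coding start site lay inside 208 of the 225 (92.4%, exact 95% binomial interval 88.2 to 95.5%), against a background of 19.3% of all merged regions. Counting start sites of any annotated transcript raised this to 213 domains (94.7%). By construction a wide region has more room for a start site, but 207 domains also held one within a window of 2000 bp on their centre, as did 21.4% of all regions with the same window. Of the domain bases, 36.1% were intronic, 35.1% lay outside protein-coding transcripts, 16.4% were 5′ untranslated, 11.9% coding and 0.498% 3′ untranslated. In the 12955 promoter regions under 2000 bp the 5′ untranslated share was 21% and the intronic share 36.3%.

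Altogether 233 genes started in a domain. There were 182 domains with 1 gene and 26 with more than 1, and 25 domains (12% of those with a start) had starts on both strands, compared with 8.31% of shorter promoter regions. At least 3 distinct start sites were annotated in 33.2% of these domains and in 22.5% of shorter promoter regions. In the 183 domains whose starts were all on 1 strand, openness reached further into the gene than ahead of it. From the outermost start the median extent was 1386 bp downstream and 872 bp upstream, and the downstream side was the longer in 126 domains (68.9%). Where all starts lay within 100 bp of each other (108 domains), the medians were 1270 and 909 bp. The same lean towards the gene body was seen in shorter promoter regions, at 595 and 363 bp, with the downstream side longer in 73.6%.

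**Figure D1:**
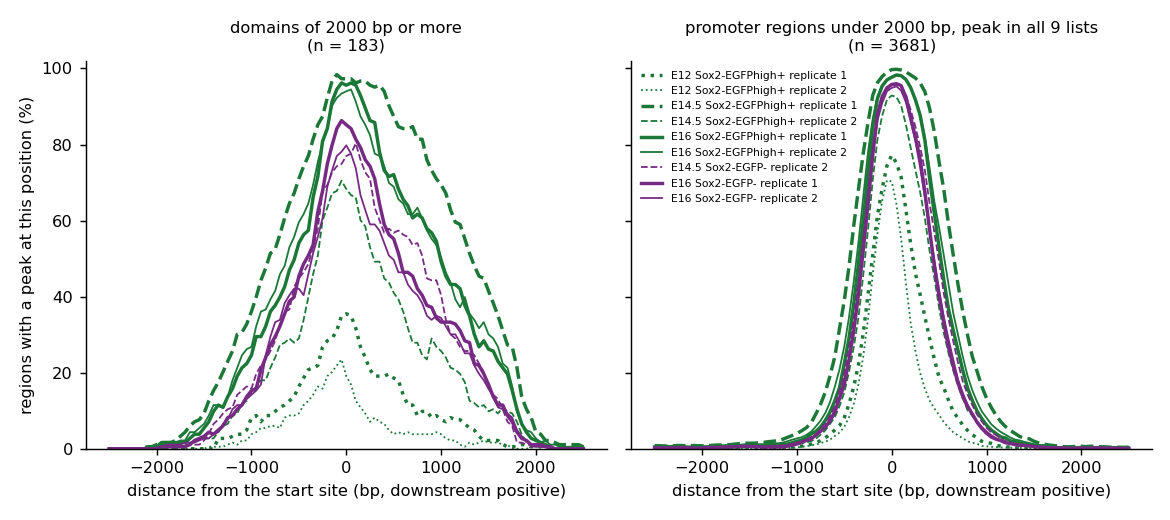
Share of regions with a peak (percent) against the distance from the outermost start site (bp, downstream positive), 1 line per peak list, for the 183 domains and the 3681 shorter promoter regions with a peak in all 9 lists and starts on 1 strand. At 1000 bp downstream, 69.4% of domains were under a peak in E14.5 Sox2-EGFPhigh+ replicate 1 and 25.7 to 50.3% in the other 6 lists of E14.5 and E16, against 13.3% and 4.1 to 8.15% of the shorter regions. The choice by width builds in a gap at this distance.

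In the plot of peak share by distance, the extra width lies on both sides of the start and appears in the lists of both cell types. The domains were chosen as wide and the shorter regions are under 2000 bp by definition. A gap between them away from the start was therefore built in, and nothing is read from its size. At 500 bp upstream, a peak covered 71% of domains in E14.5 Sox2-EGFPhigh+ replicate 1, 54.1 and 59.6% in the E16 Sox2-EGFPhigh+ lists, and 42.1 to 45.4% in the 3 Sox2-EGFP- lists. At the start site itself the direction depended on the regions compared. Against all shorter promoter regions, the domains were covered more often in 6 of 9 lists. Examples are 85.2% against 77.4% in E16 Sox2-EGFP- replicate 1 and 95.6% against 88.1% in E16 Sox2-EGFPhigh+ replicate 1. They were covered less often in both E12 lists (35.5% against 39.7% and 19.1% against 24.8%) and in E14.5 Sox2-EGFPhigh+ replicate 1 (97.3% against 98.3%). Against shorter regions chosen for a peak in all 9 lists, the domains were covered less often in every list. The values were 85.2% against 95.8% in E16 Sox2-EGFP- replicate 1 and 95.6% against 97.7% in E16 Sox2-EGFPhigh+ replicate 1. The highest summit lay less often at the start, counting regions whose starts lay within 100 bp. It lay within 250 bp of the start in 33.3 to 60% of domains by list, and in 76.9 to 86.6% of shorter promoter regions. Shorter regions leave less room for a distant summit. Their median extents were 372 bp upstream and 559 bp downstream, against 909 and 1270 bp in domains. The part of this in the difference was not tested.

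The domains were richer in CpG. They had a median GC content of 66.3% and a median of 8.62 CpG per 100 bp (95% interval of the median 8.38 to 9.02), against 61.6% and 6.72 in shorter promoter regions and 51.4% and 1.71 in all merged regions. The ratio of observed to expected CpG was 0.794, 0.722 and 0.278. A CpG-island-like span, built from 200 bp windows with a GC content of at least 50% and an observed to expected ratio of at least 0.6, overlapped all 225 domains and had a median length of 2085 bp. The median span was 916 bp in shorter promoter regions and 1100 bp in those with a peak in all 9 lists. A span of 1500 bp or more was found in 181 domains (80.4%), in 12.9% of shorter promoter regions and in 18.6% of those in all 9 lists.

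Since the density depends on where it is measured, it was also read at fixed distances from the start. Just past the start site (50 bp downstream) the domains had 11.7 CpG per 100 bp and the shorter promoters open in all 9 lists 10.4. At 950 bp downstream the values were 7.43 and 2.59, and at 950 bp upstream 3.22 and 1.42. Of the distances read, the difference was widest at 950 bp downstream.

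**Figure D2:**
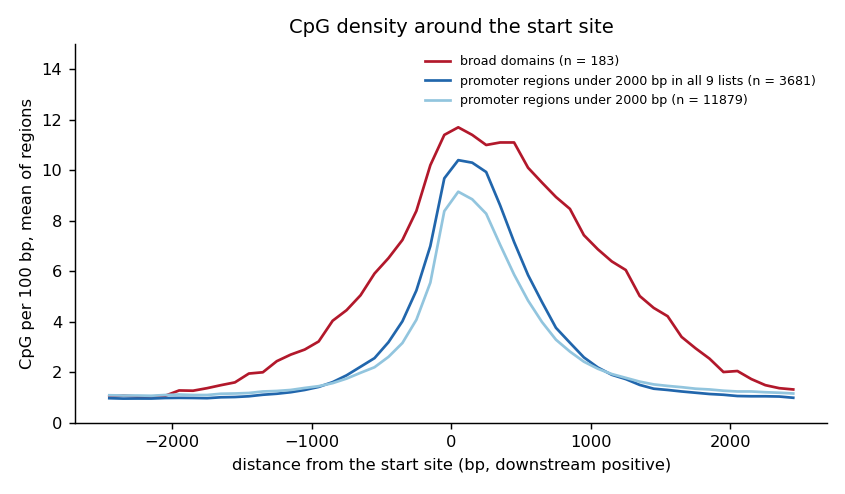
Mean CpG per 100 bp in 100 bp bins against the distance from the outermost start site (bp, downstream positive) in the 183 domains with starts on 1 strand, in shorter promoter regions and in those with a peak in all 9 lists. The curves lie near each other at the start (11.7 and 10.4 at 50 bp for domains and promoters in all 9 lists) and apart on the shoulders (7.43 and 2.59 at 950 bp).

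Short motifs were counted on both strands in the 2000 bp around each region's centre. The GC box GGGCGG, bound by Sp and Klf factors, was present in all 225 domains, with a mean of 9.45 copies, against 89.2% and 3.83 copies in shorter promoter regions and 44.9% and 1.26 copies in all regions. The Nfy box CCAAT was less frequent, at 1.77 copies against 2.51 and 2.66. The zinc finger factor motif AGATAA (for the Gata family) was present in 19.1% of domains, 49.5% of shorter promoter regions and 63.2% of all regions, and the Tead motif GGAATG in 41.8%, 61.7% and 68.5%. The Sox motif ACAATGG was present in 14.7% of domains, 15.5% of shorter promoter regions and 24.7% of all regions, and the Ets motif CCGGAAG in 27.1%, 32.6% and 14.3%. The window was of the same length for all groups. The median width was 1016 bp in shorter promoter regions and 576 bp in all merged regions, so much of their window lay outside the region. A match is not a bound site, and the parts of base composition and of this flanking sequence in these counts were not tested.

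The lists that made the domains broad were few. E14.5 Sox2-EGFPhigh+ replicate 1 had the most bases in 209 of the 225 domains. It held a single peak of 2000 bp or more in 121 domains, and the E16 Sox2-EGFPhigh+ replicates in 19 and 18. The other 6 lists did so in 1 to 3. Merging the other 8 lists alone left 97 regions of 2000 bp or more, whereas leaving out any other list left 208 to 225. That list alone gave 141 such regions, the E16 Sox2-EGFPhigh+ lists alone 22 and 24, and each other list 1 to 5. From the 6 Sox2-EGFPhigh+ lists 201 domains were obtained, and from the 3 Sox2-EGFP- lists 37. Without E14.5 replicate 1 the other 5 Sox2-EGFPhigh+ lists gave 62. Of the 97, 92.8% held a protein-coding start, and their own median CpG density, as rebuilt without it, was 9.34 per 100 bp.

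**Figure D3:**
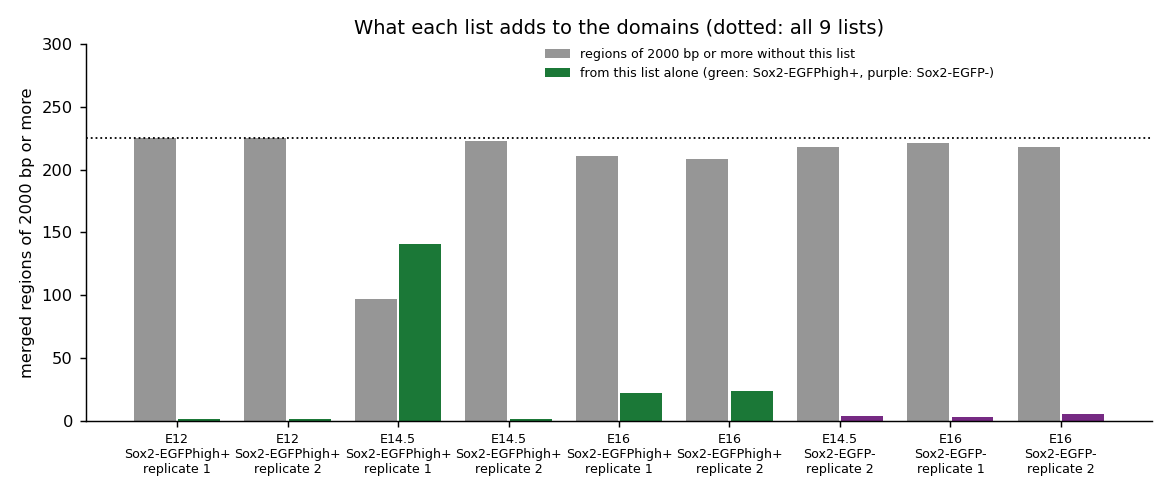
Number of merged autosomal regions of 2000 bp or more without each list (grey bars) and from each list alone (coloured bars), with the 225 of all lists dotted. Leaving out E14.5 Sox2-EGFPhigh+ replicate 1 left 97, and leaving out any other list left 208 to 225.

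The same loci were narrower in the other lists, and usually broken. The median number of bases of a domain inside peaks was 2057 bp in E14.5 Sox2-EGFPhigh+ replicate 1 and 1018 bp in replicate 2. It was 1680 and 1684 bp in the E16 Sox2-EGFPhigh+ lists. The Sox2-EGFP- lists had medians of 1339 bp at E14.5 and 1343 and 1237 bp at E16, between the 2 E14.5 Sox2-EGFPhigh+ replicates. The E12 lists had 423 and 200 bp. A peak was found in all 225 domains in 3 lists, in 214 to 224 in the other 4 lists of E14.5 and E16, and in 173 and 115 in the short E12 lists. E14.5 Sox2-EGFPhigh+ replicate 1 had 1 unbroken peak in 143 domains, whereas the other 6 lists of E14.5 and E16 had 1 peak in 67 to 90 domains and at least 2 in 132 to 157.

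**Figure D4:**
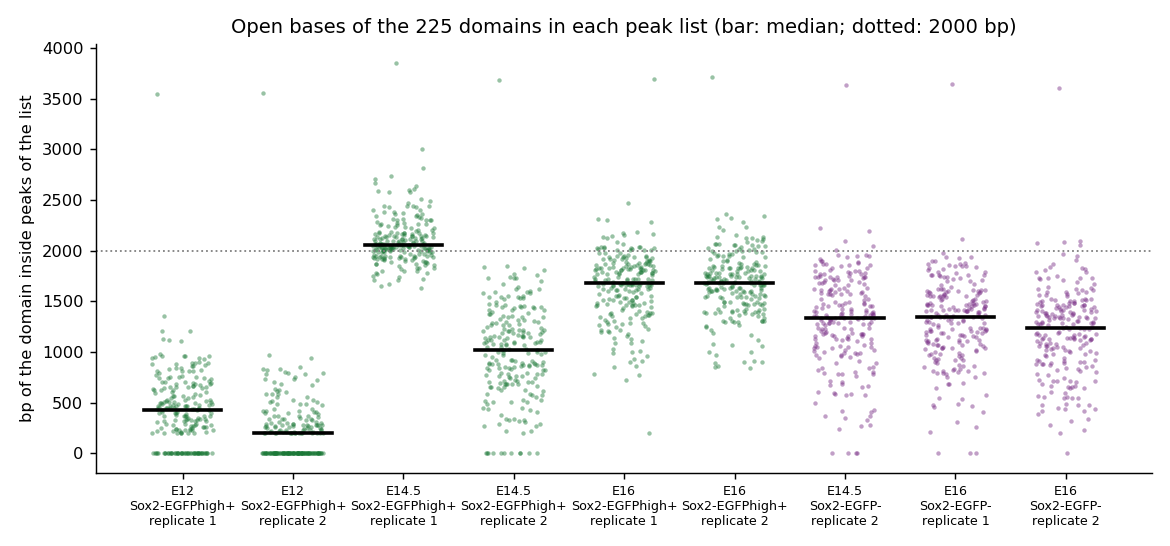
Bases of each of the 225 domains inside peaks (bp), 1 point per domain, for each peak list, with the median as a bar and 2000 bp dotted; green marks Sox2-EGFPhigh+ and purple Sox2-EGFP-. The medians run from 200 bp (E12 replicate 2) to 2057 bp (E14.5 Sox2-EGFPhigh+ replicate 1), and the highest point in every list is the chromosome 17 interval (3549 to 3849 bp).

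Because the members were chosen on merged width, width was tested only in lists whose own peaks were left out of the merging. For each list in turn, domains were rebuilt from the other 8 lists, and the median width of the left-out list's peaks inside them was compared with that of its other autosomal peaks. The peaks inside were wider in 9 of 9 lists, by a mean of 254 bp ± 332 (SD, n = 9; two-sided exact sign permutation, p = 0.00391, the smallest that 9 lists can give). The difference was 1043 bp in E14.5 Sox2-EGFPhigh+ replicate 1 (1596 against 553 bp). It was 474 and 307 bp in the E16 Sox2-EGFPhigh+ lists, 69.5 to 182 bp in the Sox2-EGFP- lists, and 15 and 11 bp at E12.

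The call was lost when promoters took the place of all other peaks. Against the left-out list's peaks in promoter regions under 2000 bp, the mean difference was 52.9 bp (exact sign permutation, p = 0.605, n = 9), and against promoter regions with a peak in every other list it was -82.3 bp (p = 0.254, exact), with the peaks in domains narrower in 8 of 9 lists. Summed over a region, the left-out list did have more open bases in domains than in those promoter regions, by a mean of 456 bp (exact sign permutation, p = 0.0156, n = 9), and 7 of 9 lists had this direction. The sums were 2088 against 1140 bp in E14.5 Sox2-EGFPhigh+ replicate 1 and 1343 against 799 bp in E16 Sox2-EGFP- replicate 1, and at E12 they were 423 against 458 bp and 200 against 223 bp. A longer interval has more room for bases, and its part in this difference was not tested. The lists were filtered against each other, so the 9 values are not fully independent. Through this filter a left-out list also had a part in which peaks of the other lists of its type were retained. The domains rebuilt without a list were thus not wholly independent of it.

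The domains were not the highest peaks. The median fold enrichment of the highest peak in a domain was lower than in shorter promoter regions in 9 of 9 lists, with 6.32 against 9.62 in E14.5 Sox2-EGFPhigh+ replicate 1, 5.81 against 7.8 in E16 Sox2-EGFPhigh+ replicate 2 and 6.57 against 8.26 in E16 Sox2-EGFP- replicate 1. This ratio compares a summit with the local background of the peak caller, and the part of that background in the difference was not tested. By rank of -log10 p among the autosomal peaks of its list, the highest peak of the median domain stood between percentiles 56 and 84.1 by list, and that of shorter promoter regions between 56.7 and 86.2.

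The cell types were compared by the share of each list's 5000 highest peaks that lay in a domain. The shares were 0.46% and 1.58% in the E14.5 Sox2-EGFPhigh+ replicates, 1.34% and 0.86% in the E16 Sox2-EGFPhigh+ replicates, 1.34% in the E14.5 Sox2-EGFP- list and 1.7% and 1.28% in the E16 Sox2-EGFP- lists. The ranges overlapped, and E14.5 Sox2-EGFPhigh+ replicate 1, the list with the widest peaks, had the lowest share. The longest lists, this one (66332 peaks) and E16 Sox2-EGFPhigh+ replicate 2 (65870 peaks), had the lowest shares. E14.5 Sox2-EGFPhigh+ replicate 2, with 22962 peaks, was near the Sox2-EGFP- lists in length and within their range of shares. The part of list length in the difference was not tested. The means were 1.06% ± 0.5 (SD, n = 4) and 1.44% ± 0.227 (SD, n = 3), a difference of -0.38 percentage points that did not pass the two-sided exact permutation test (p = 0.286, 35 splits, smallest possible 0.0286). Without E14.5 Sox2-EGFPhigh+ replicate 1 the difference was -0.1 points (p = 0.7, exact, smallest possible 0.1). The E12 lists, the shortest, had 1.7% and 1.8%. Within the larger sequencing batch, which leaves out both E16 replicates numbered 1, the difference was -0.343 points (exact permutation, p = 0.5, smallest possible 0.1). The other batch holds 1 list of each type, at 1.34% and 1.7%, and allows no test.

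No domain belonged to 1 cell type. The domains with peaks in Sox2-EGFPhigh+ lists alone were 0 of 225 (exact 95% interval up to 1.63%), against a background of 65.7%, and those with peaks in Sox2-EGFP- lists alone were also 0, against 5.67%. A peak was found in all 9 lists in 105 domains (46.7%; background 7.3%) and in all 7 lists of E14.5 and E16 in 208 (92.4%; background 18.2%). The merging of lists entered the choice of the domains, so these shares describe them and nothing is read from the difference to the background. In promoter regions under 2000 bp the 4 shares were 13.1%, 0.625%, 32.6% and 72.8%.

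By width, 13 domains (5.78%) had more bases in each of the 4 Sox2-EGFPhigh+ lists of E14.5 and E16 than in each of the 3 Sox2-EGFP- lists, which was below the background of 9.67% of all regions. None had fewer in each, against 2.6%. The choice by width left little room for such a domain. E14.5 Sox2-EGFPhigh+ replicate 1 is among the 4 lists and had the most bases in 209 of the 225 domains. Nothing is therefore read from these shares beside their background. The 13 include the chromosome 17 interval described below, where the gap was small (at least 3688 bp against at most 3650 bp). The gap was widest at Sall3, a spalt-family zinc finger gene, with 1205 bp or more in each Sox2-EGFPhigh+ list and 441 bp or less in each Sox2-EGFP- list. It followed at Xkr4 (1435 and 1014 bp), Runx1t1, a transcriptional corepressor gene (889 and 537 bp), and Mcam, a cell adhesion gene (520 and 283 bp). At Gsk3b, the kinase that marks beta-catenin for degradation, it was 1697 against 1638 bp, and at Carm1, an arginine methyltransferase, 1455 against 1451 bp. These 6 genes were named after their values were seen.

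The widest domain was the only one with more than 2000 bp inside peaks in every list. It lay at chr17:39980024-39983872, had 1 peak in each list and covered 3549 and 3556 bp at E12, 3849 and 3688 bp in the E14.5 and 3691 and 3717 bp in the E16 Sox2-EGFPhigh+ lists, and 3635, 3650 and 3611 bp in the Sox2-EGFP- lists. Its fold enrichment was low, 2.09 to 2.44 over the 9 lists. The annotation used has no gene inside it, and the nearest protein-coding start, that of Pgk2, is 364 kb from its centre. As background, this stretch of the assembly is known to hold a copy of the precursor ribosomal RNA gene, which the genome carries in many more copies than the assembly does. Without it, 224 domains remained, of which 92.9% held a protein-coding start.

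Among the 12 widest domains, the other 11 held a protein-coding start. At Tcfap4 (chr16:4557945-4560951, 3007 bp), a basic helix-loop-helix factor gene, the list values were 292 and 0 bp at E12, 3006 and 338 bp in the E14.5 Sox2-EGFPhigh+ replicates, 1904 and 1975 bp in the E16 Sox2-EGFPhigh+ replicates, 780 bp in E14.5 Sox2-EGFP- and 1036 and 1128 bp in the E16 Sox2-EGFP- lists. The 2 E14.5 Sox2-EGFPhigh+ replicates thus spanned all other values of E14.5 and E16. At Dnmt3a (chr12:3806045-3809009, 2965 bp), a de novo DNA methyltransferase gene, they were 200 and 0, 2470 and 968, 1810 and 2344, 371, and 1739 and 1672 bp in the same order. The groups of the 2 cell types overlapped at both genes.

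Nsd1 (chr13:55311454-55314193, 2740 bp), which encodes a histone H3 methyltransferase, was open in all 9 lists, at 959 and 629 bp in the E12, 2740 and 1309 bp in the E14.5 and 2303 and 2230 bp in the E16 Sox2-EGFPhigh+ lists, and at 1367, 1472 and 1823 bp in the Sox2-EGFP- lists. Klf13 (chr7:71082033-71084743, 2711 bp), a Krüppel-like factor gene, was open in all 9 lists too, from 585 bp at E12 to 2708 bp in E14.5 Sox2-EGFPhigh+ replicate 1, with 1428 to 1799 bp in the Sox2-EGFP- lists. Sox12 (chr2:152222472-152225158, 2687 bp), a SoxC gene, ranged from 280 bp at E12 to 2013 bp in E16 Sox2-EGFPhigh+ replicate 2. No single list reached its full width, which arose from peaks of several lists side by side. Ing2, a chromatin reader gene that shares its domain of 2705 bp with AA386476, had 352 to 2383 bp.

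Of the remaining wide domains, Tsc22d2 (2998 bp) held 255 to 2610 bp, and Basp1 with Gm5468 (2938 bp) 0 to 2585 bp. The active zone gene Rims2 (2741 bp) held 0 to 2579 bp. Rreb1 (2819 bp), a zinc finger factor gene, had no peak in either E12 list nor in E14.5 Sox2-EGFPhigh+ replicate 2, but 2819 bp in replicate 1 of that group and 1179 to 1896 bp in the Sox2-EGFP- lists. Kcng3 (2723 bp), a potassium channel subunit gene, had no peak at E12 nor in E14.5 Sox2-EGFP-, and 312 to 2509 bp in the other 6 lists.

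**Figure D5:**
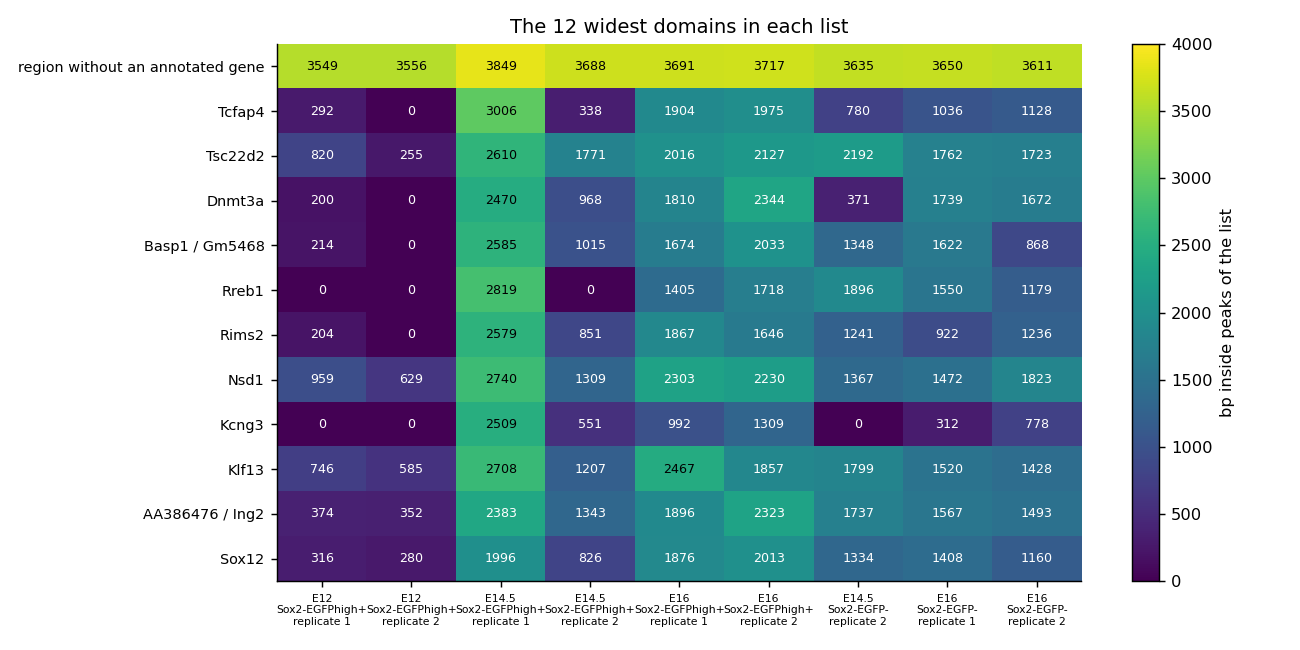
Bases inside peaks (bp, colour and number) of the 12 widest domains, 1 row each, in the 9 peak lists. The chromosome 17 interval (top row) holds 3549 bp or more in every list, and the other 11 are widest or nearly so in E14.5 Sox2-EGFPhigh+ replicate 1.

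The domains with peaks in the fewest lists were an intergenic interval at chr18:36077950-36080393 (5 lists) and 10 domains with peaks in 6 lists, of which Rreb1, Kcng3 and Mcam are the widest. At the other end, after the chromosome 17 interval, the list with the fewest bases still held 941 bp at 1190002N15Rik, 852 bp at Tnrc6c, a gene of the microRNA silencing complex, and 833 bp at Ankhd1.

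There were 17 domains without a protein-coding start, and 5 of them held the start of another annotated transcript. For the 12 that did not, an incomplete annotation can be seen in part: RefSeq promoter sequences (GRCm38.p6), matched letter for letter to these intervals, placed the starts of Igf1r, the receptor of insulin-like growth factors, Dchs2, a cadherin gene, Tmem178b and Gm41231 inside domains. They also placed those of Tesk1, Dleu2 and B330016D10Rik in domains with another annotated transcript. The domain at chr14:115439459-115441810 (2352 bp), whose sequence is printed above, had a peak in all 9 lists and 13.8 CpG per 100 bp. Its sequence ends 1802 bp before the RefSeq start of Mir17hg, the host gene of the miR-17 to miR-92 cluster. The others without an annotated protein-coding start include chr19:61301252-61303689 (2438 bp, 7 lists), chr14:62299715-62301921 at Dleu2 (2207 bp, 9 lists) and chr14:100683580-100685786 at Gm41231 (2207 bp, 9 lists).

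The listed genes of the ear were members in small number, at a share above that of all protein-coding genes. This difference was not tested. Of 228 autosomal genes in 12 lists of otic factors, signalling pathways, deafness genes, cell cycle genes and cell type markers, 8 (3.51%) started in a domain, compared with 233 of 21281 protein-coding genes (1.09%). Among genes with a start in any merged region the shares were 8 of 183 (4.37%) and 233 of 13312 (1.75%). The Notch list gave 1 of 22, Rbpj, the DNA-binding partner of the Notch intracellular domain. Its domain (2365 bp) held 858 and 209 bp at E12, 1896 and 883 bp in the E14.5, 1815 and 2050 bp in the E16 Sox2-EGFPhigh+ lists, and 1706, 1603 and 1640 bp in the Sox2-EGFP- lists. The Fgf list gave 1 of 18, Fgfr2 (2336 bp), a receptor gene, with no peak at E12, 2305 and 796 bp at E14.5 and 2145 and 1753 bp at E16 in Sox2-EGFPhigh+ lists, and 852, 1147 and 885 bp in Sox2-EGFP- lists. One of these 4 later Sox2-EGFPhigh+ values lay below all 3 Sox2-EGFP- values and the others above them.

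The Bmp list gave 1 of 24, Id4 (2428 bp), an inhibitor of basic helix-loop-helix factors, with 420 to 2428 bp in the 9 lists. From the Wnt list 1 of 34 was a member, Znrf3 (2103 bp), a ligase that removes Frizzled receptors, with 0 to 2010 bp. The otic transcription factors gave 2 of 39, Sox11 (2084 bp, 265 to 2054 bp), a SoxC gene, and Zeb1 (2240 bp, 0 to 2093 bp), a zinc finger repressor gene. The deafness genes gave 2 of 36: Chd7 (2404 bp, 0 to 2134 bp), a chromatin remodeller mutated in CHARGE syndrome, and Espn (2025 bp, 0 to 1922 bp), an actin-bundling protein of stereocilia. No gene of the Hedgehog list (12), of the cell cycle regulators (18), or of the otic mesenchyme (9), macrophage (8), endothelial (8) or glia (5) markers started in a domain. At the share of all protein-coding genes, 1.09%, each of these lists without a member would by its size hold few or none.

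Families were also grouped by symbol. None of 80 ribosomal protein genes and none of 67 histone genes started in a domain, and 95% and 85.1% of them started in some merged region. Of all protein-coding genes 1.09% started in a domain, and 1.75% of those with a start in any merged region. At these shares, families of this size would hold few members or none. None of 39 Hox genes, 16 T-box genes, 34 protocadherin genes or 1081 olfactory receptor genes started in a domain. The same held for 41 genes of the Pax, sine oculis, Lhx, Irx, Dlx and Meis families. Only 9 Hox, 11 protocadherin and 1 olfactory receptor genes started in any merged region, so most of these could not be members. For the T-box genes it was 10 and for the Pax to Meis families 33. Of 17 Sox genes 2 started in a domain (Sox11 and Sox12), and of 28 Klf and Sp genes 2 (Klf13 and Sp3). It was 2 of 40 Fox genes (Foxd1 and Foxn3), 1 of 8 AP-1 genes (Jun) and 4 of 355 Zfp genes (1.13%). These counts are small, and none was tested.

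A pair of further families was assembled after the members had been seen and so only describes them. Of 167 genes named as chromatin regulators, 21 (12.6%) started in a domain, beside 1.09% of all protein-coding genes. They include methyltransferase genes (Mll1, Mll3, Nsd1, Setd7, Dnmt3a, Carm1) and the related Mll5, demethylase genes (Kdm2a, Jhdm1d, Phf2), the acetyltransferase gene Myst4, remodeller genes (Chd7, Arid1b, Cecr2), reader genes (Cbx3, Ing2) and coregulator genes (Ncoa2, Rcor3), besides Arid4a and Epc2. Their widths ran from 2037 bp (Carm1) to 2965 bp (Dnmt3a). Of 35 Zbtb genes, which encode zinc finger factors with a BTB domain, 4 did (Zbtb1 and Zbtb25 in 1 domain, Zbtb10 and Zbtb46).

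Of the 37 domains that were 2000 bp or wider in the Sox2-EGFP- lists alone, 25 were also that wide from the other 5 Sox2-EGFPhigh+ lists without E14.5 replicate 1. Those 25 had a median merged width of 2370 bp and 10.1 CpG per 100 bp, 24 held a protein-coding start and 19 (76%) had a peak in all 9 lists. They include Nsd1, with 2433 bp from those Sox2-EGFPhigh+ lists and 2170 bp from the Sox2-EGFP- lists, Dnmt3a, with 2141 and 2078 bp, Rbpj, with 2227 and 2320 bp, and Sp3, with 2498 and 2254 bp. At Rcor3 the Sox2-EGFP- lists gave 2204 bp and these Sox2-EGFPhigh+ lists 1155 bp. These genes were named after their values were seen.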

How the data were processed

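Peak lists of 9 ATAC-seq samples were analysed, 6 of Sox2-EGFPhigh+ and 3 of Sox2-EGFP- cells. According to the methods and the submitters' processing notes, Trim Galore was used for trimming, Bowtie2 for alignment (build mm9), and Picard and SAMtools to take out duplicate and mitochondrial reads. MACS2 was run per sample, replicated peaks of a type were retained, and peaks in ENCODE blacklist regions are stated to have been dropped. Each deposited peak carries its fold enrichment, a ratio to local background, and its significance as −log10 p and −log10 q, which the authors obtained from MACS2. The deposited score was not used. Shifting and extending reads around insertion sites adds width to each peak, so narrow gaps may be bridged.

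Autosomal peaks were merged within 100 bp and regions of 2000 bp or more kept, with Python 3.11.15, NumPy 2.4.6, pandas 2.3.3, SciPy 1.17.1 and matplotlib 3.10.9. Merging and overlap were tested on simulated data against bedtools 2.31.1. Genes came from GENCODE for NCBIM37 (protein-coding transcripts), and sequences from that genome. RefSeq promoters are of GRCm38.p6 and were used by sequence alone. The members and lists were chosen with earlier results of these data known. Named genes follow a rule: the 12 widest domains, the 6 widest without a start, the 4 in the fewest lists and the 4 with the most bases in their poorest list, the 3 on either side of the threshold, and members of the gene lists; exceptions are said in the text. The tests were two-sided exact permutations over lists, whose p-values measure the spread between these lists. The lists differ in stage and cell type and are not all separate litters. By the paper's methods, some Sox2-EGFP- samples were collected alongside Sox2-EGFPhigh+ ones, so lists of both types may share a litter. The main cell type test does not take this into account, and only the replicate block pairs lists. Intervals cover counting error only. Alternatives were other merging distances, widths, peak thresholds and list lengths, the X chromosome, all transcripts, the larger sequencing batch and leaving out each list, and those against promoter regions, with 20000 peaks and without the chromosome 17 interval were chosen after seeing the data. Reads, and so depth, are not analysed here, nor is the ENCODE blacklist. A few items that this rule or a count covers are not reported here.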

Additional observations from a re-analysis of the deposited data

Results flagged for a closer look

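The number of autosomal peaks of 2000 bp or more in E14.5 Sox2-EGFPhigh+ replicate 1, 121, lay far from the others, both among the 6 Sox2-EGFPhigh+ lists and among the 4 of E14.5 and E16 (Dixon's criterion, which chance meets in about 1 in 20 groups). The other 5 lists held 1 to 19. The median bases per domain and the share of the highest peaks in domains were not flagged in the same groups.

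Regions of 2000 bp or more were also found on the X chromosome, which the domains leave out. There were 4, each over 1 protein-coding start: Usp9x (2457 bp, 9 lists) and Ddx3x (2133 bp, 9 lists), Nhs (2242 bp, 8 lists) and Cnksr2 (2179 bp, 8 lists).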

How the results depend on the processing

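The number of domains was 184 with a merging distance of 0 bp and 212 with a −log10 q of at least 5. It moved to 498 at 500 bp, to 1722 and 2 at widths of 1500 and 3000 bp, to 27 with the 5000 and 141 with the 20000 highest peaks of each list, and lay between 97 and 225 when 1 list was left out, with 97 without E14.5 Sox2-EGFPhigh+ replicate 1. The share over a protein-coding start was 86.3% at 500 bp, 86.1% and 50% at the 2 widths and 96.3% with 5000 peaks, and 91.8 to 92.9% without 1 list. CpG per 100 bp was 7.42 at 500 bp, 8.05 and 8.11 at the 2 widths and 9.11 with 5000 peaks, and 8.62 to 9.34 without 1 list. The width difference of a left-out list stayed positive with p from 0.00391 to 0.0156 (exact) in the other alternatives and from 207 to 312 bp without 1 list, except that it was 52.9 bp (p = 0.605) against shorter promoter regions and -82.3 bp (p = 0.254) against those in every other list. In that comparison only the regions compared were changed. The difference between cell types in the highest peaks was -0.547 to -0.1 points without 1 list. It had an exact p from 0.257 to 1 in the 11 alternatives that could pass, and the other 9 (those without a list of E14.5 or E16, the larger batch and the block) cannot. With a replicate block, pairing lists of the same stage and number, it was -0.18 points (exact p = 0.5, 3 pairs, smallest possible 0.25). The E16 pairs also share a sequencing batch, and the replicate differences of the 2 types over domains at E16 had a correlation of -0.000447. Peaks missing from the short E12 lists were not read as closed chromatin.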
